A study of Mus musculus with 8 samples.

Results

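The fibroblast growth factor (FGF) genes described here are 10 members of the family: the secreted ligands Fgf1, Fgf7, Fgf9, Fgf10, Fgf18 and Fgf22, the intracellular family member Fgf13, and the receptors Fgfr1, Fgfr2 and Fgfr3. Each was found by its symbol, and the 10 made up 10 of the 33136 table entries that name 1 gene. The samples were oral mucosa of wild-type C57BL/6J mice at 4 sites: the inner cheek (buccal mucosa), the upper surface of the tongue (dorsal tongue), the hard palate, and the underside of the tongue (ventral tongue). Each site gave 2 samples, and tomo-seq (RNA sequencing of single consecutive cryosections) gave 20 sections of 14 µm per sample. No treatment or allele was compared, and the labels give neither age nor sex. Replicates are numbered in the labels and no animal is named, so each p-value reflects only the scatter between these samples, some of which may be technical.

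FGFs are signalling proteins that bind receptor tyrosine kinases together with heparan sulphate on the cell surface. Fgf7 and Fgf10 are classic ligands made by connective tissue cells and received by the epithelial splice form of Fgfr2. In skin and its appendages, Fgf22 is known as a ligand made by keratinocytes. Fgf13 lacks a secretion signal and binds sodium channels and microtubules inside cells. The oral lining is a stratified squamous epithelium on a connective tissue layer, with muscle or bone beneath it, so ligand and receptor can sit in different layers. Counts per gene at the 3′ end do not separate the splice forms of a receptor.

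The stretches before the start sites of Fgf22, Fgfr3 and Fgf7 are shown because Fgf22 and Fgfr3 rose in sections rich in epithelium and Fgf7 fell there, as described below. They are on the plus strand of GRCm38.p6, 5′ to 3′, from RefSeq's start sites. Each stops before the first annotated exon of its gene, and capitals mark the GC box (GGGCGG or its reverse complement CCGCCC).
Fgf22, chr10:79754859-79755075: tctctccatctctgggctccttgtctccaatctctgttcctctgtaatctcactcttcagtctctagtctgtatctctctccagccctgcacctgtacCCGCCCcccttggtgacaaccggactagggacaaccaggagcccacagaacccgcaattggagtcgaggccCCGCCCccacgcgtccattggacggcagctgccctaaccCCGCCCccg
Fgfr3, chr5:33721474-33721673: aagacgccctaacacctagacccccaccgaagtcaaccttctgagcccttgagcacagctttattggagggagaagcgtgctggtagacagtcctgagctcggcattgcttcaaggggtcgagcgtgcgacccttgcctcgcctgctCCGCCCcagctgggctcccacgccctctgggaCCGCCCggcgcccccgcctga
Fgf7, chr2:126034408-126034657: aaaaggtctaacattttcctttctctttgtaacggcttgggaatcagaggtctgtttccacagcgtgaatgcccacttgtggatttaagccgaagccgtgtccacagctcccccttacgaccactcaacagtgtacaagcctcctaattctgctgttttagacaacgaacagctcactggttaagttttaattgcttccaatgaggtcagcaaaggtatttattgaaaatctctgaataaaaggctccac
The stretch of Fgf22 holds 3 GC boxes, that of Fgfr3 holds 2 and that of Fgf7 holds 0. Over the full 250 bases before the RefSeq start, which can run into an annotated exon, Fgf22 and Fgfr3 both have 3. RefSeq gives Fgfr3 another start further along, whose 250 bases (chromosome 5, 33722056 to 33722305) have 2 GC boxes and 0 E-boxes. The printed stretch of Fgfr3 also holds an annotated exon of G630022F23Rik, a gene of the opposite strand. Of all 32851 promoters, 32.7% have a GC box on either strand within 250 bases. Neither strand of the 3 stretches has TATAAA, which 12.4% of all promoters have. An AP-1 site (TGANTCA, 6.75% of all promoters) and an AP-2 site (GCCNNNGGC, 13.7%) were not found in the 250 bases of these 3 genes either, and the E-box (CANNTG, 66.2%) was found 4 times for Fgf22 and once each for Fgfr3 (at the start shown) and Fgf7. GC content was 60.8% in the stretch of Fgf22, 65.0% in that of Fgfr3 and 43.6% in that of Fgf7. These are letters in a window and say nothing of which factor binds there.

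In the GENCODE annotation of GRCm38, Fgf22 spans 79755076 to 79758596 on chromosome 10, Fgfr3 spans 33721674 to 33737068 on chromosome 5, and Fgf7 spans 126034658 to 126091185 on chromosome 2, all on the plus strand. Fgf9 (chromosome 14, 58070547 to 58112720), Fgf10 (chromosome 13, 118669791 to 118792115) and Fgfr1 (chromosome 8, 25513654 to 25575718) are on the plus strand as well. Fgf1 (chromosome 18, 38838673 to 38929472), Fgf13 (chromosome X, 59062145 to 59568071) and Fgf18 (chromosome 11, 33117430 to 33147400) are on the minus strand, as is Fgfr2.

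Library totals ran from 7830471 to 26376536 unique molecular identifiers (UMIs, one per captured transcript copy), and single sections held 2523 to 2850676. Levels are given in CPM, the UMIs of a gene per 1000000 UMIs of its sample or region. Buccal mucosa replicate 2 stood apart from its label. Its 20 keratinocyte genes summed to 697 CPM, against 14775 to 26070 CPM in the other 7 samples. Its skeletal muscle list (50783 CPM), adipocyte list (4812 CPM), salivary gland list (14128 CPM) and Schwann cell list (1981 CPM) were above all other samples, which reached 28177, 1095, 138 and 706 CPM. Results that rest on it are given with and without it. Hard palate samples had a skeletal muscle list of 235 and 568 CPM, against at least 17060 CPM in each other sample, and a bone and cartilage list of 54.9 and 73.4 CPM, against at most 29.2 CPM.

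The 10 genes differed widely in how many molecules stood behind them. Fgfr2 had 35518 UMIs over the 160 sections and was seen in 159 of them. Fgfr3 had 10465 UMIs, Fgfr1 had 8093 and Fgf22 had 5455. Fgf1 had 2581 UMIs, Fgf7 had 1989, Fgf13 had 1803 and Fgf10 had 1342. Fgf9 and Fgf18 were sparse, with 279 UMIs in 91 sections and 278 UMIs in 81 sections. All 10 passed edgeR's filter on low counts in each test over all 8 samples. Of the fits without 1 sample, Fgf18 passed the filter in 5 of 8 between the regions and in 4 of 8 between sections 1 to 10 and 11 to 20.

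To ask where in the tissue each gene was found, the sections of each sample were split into epithelium-rich and epithelium-poor by the level of the 20 keratinocyte genes, which include no FGF gene. The cut was made within each sample. In buccal mucosa replicate 2 the 20 genes summed to 1553 CPM in the region called epithelium-rich. The epithelium-poor region of each other sample had at least 11176 CPM. The epithelium-poor region held 2 of 20 sections in dorsal tongue replicate 1 and hard palate replicate 1, and 7 to 16 elsewhere. The 20 genes' mean log2(CPM + 1) by region was 9.06 and 8.79 in dorsal tongue replicate 1. It was 9.21 and 8.15 in ventral tongue replicate 1. Between these regions 8 of the 10 genes changed: Fgf22, Fgfr3 and Fgfr2 rose in epithelium-rich sections, and Fgf1, Fgf7, Fgf9, Fgf13 and Fgfr1 fell. The test was edgeR's quasi-likelihood F-test with the sample as a block and Benjamini-Hochberg adjustment over all 15278 genes, of which 38.8% passed (16.7% with a higher and 22.1% with a lower level in the epithelium-rich region). The log2 fold changes of the 10 genes had a median of -0.35, against -0.02 over all genes tested. In these bulk sections, fewer cells of a type and less RNA per cell cannot be told apart.

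Fgf22, the keratinocyte ligand, had the largest rise of the 10. Its epithelium-rich level ran from 0 to 79.2 CPM with a median of 40.7 CPM over the 8 samples, and its epithelium-poor level from 0.468 to 45.3 CPM with a median of 20.7 CPM. The level was higher in the epithelium-rich region in 7 of 8 samples, by 1.55-fold (dorsal tongue replicate 2) to 2.48-fold (hard palate replicate 1). The eighth, buccal mucosa replicate 2, had 3 UMIs of Fgf22 in all, so that it shows no direction. The log2 fold change was 1.01 ± 0.11 (SE, n = 8, adjusted p = 8.52e-05 by edgeR's quasi-likelihood test). Along the sections of hard palate replicate 2, Fgf22 stood at 97.9 CPM in sections 1 to 5, 72.1 in sections 6 to 10, 58.6 in sections 11 to 15 and 39.1 in sections 16 to 20. The same stepwise order held in hard palate replicate 1, both ventral tongue samples and dorsal tongue replicate 2. It did not hold in dorsal tongue replicate 1, where sections 6 to 10 were highest at 69.6 CPM, nor in buccal mucosa replicate 1, where the last 5 sections (13.4 CPM) exceeded the 5 before them (8.91 CPM).

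The receptor Fgfr3, which is found on epithelial cells and cartilage, was higher in the epithelium-rich region in 7 of 8 samples, with a median of 72.9 CPM there (4.91 to 150 CPM) and 48.3 CPM in the epithelium-poor region (2.34 to 114 CPM). Its log2 fold change was 0.49 ± 0.10 (SE, n = 8, edgeR adjusted p = 0.00266). The exception was hard palate replicate 1, at 97.5 CPM in epithelium-rich and 114 CPM in epithelium-poor sections.

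Fgfr2, the receptor whose epithelial splice form takes up Fgf7, Fgf10 and Fgf22, rose by less. Its median was 247 CPM in epithelium-rich sections (115 to 372 CPM) and 173 CPM in epithelium-poor sections (79.5 to 400 CPM). The log2 fold change was 0.39 ± 0.09 (SE, n = 8, edgeR adjusted p = 0.00484), with 6 of 8 samples higher in the epithelium-rich region. The ratio of the regions was 1.92 and 1.48 in ventral tongue, 1.69 and 1.45 in buccal mucosa, 1.1 and 1.06 in dorsal tongue, and 0.907 and 0.993 in hard palate. It was above 1 in all samples but the 2 of hard palate. The test of whether the region difference depended on the site did not pass for Fgfr2 (edgeR adjusted p = 0.350) or Fgfr3 (0.333). With regions cut by Krt5 and Krt14 alone in place of the 20 genes, Fgf22 (log2 fold change 0.49, edgeR adjusted p = 0.0869) and Fgfr2 (0.29, adjusted p = 0.0619) no longer passed. In hard palate replicate 1 that cut moved sections 1, 2, 4 to 8 and 13 to the epithelium-poor region. It moved sections 18 and 19 of that sample to the epithelium-rich region. In dorsal tongue replicate 1 it left only sections 1 to 4 as epithelium-rich. The part of these moves in the lost calls was not tested.

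Fgf13, the intracellular member, was higher in the epithelium-poor region in all 8 samples, by 1.59-fold (ventral tongue replicate 2) to 3.23-fold (buccal mucosa replicate 1). Its median was 7.98 CPM in epithelium-rich sections (2.68 to 18.9 CPM) and 18.6 CPM in epithelium-poor sections (5.72 to 34.7 CPM). The log2 fold change was -1.13 ± 0.13 (SE, n = 8, edgeR adjusted p = 8.72e-05). In ventral tongue replicate 1 it stood at 3.76 CPM in sections 1 to 5 and at 32.4 CPM in sections 11 to 15.

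Fgf1, a ligand that binds every FGF receptor, was also higher in epithelium-poor sections in all 8 samples, by 1.08-fold (buccal mucosa replicate 2) to 2.61-fold (dorsal tongue replicate 2). Its median was 9.20 CPM in epithelium-rich and 19.6 CPM in epithelium-poor sections, and the log2 fold change was -0.95 ± 0.13 (SE, n = 8, edgeR adjusted p = 0.00029). Fgf7, the keratinocyte growth factor, had medians of 8.57 and 16.1 CPM and a log2 fold change of -0.89 ± 0.13 (SE, n = 8, edgeR adjusted p = 0.000345). The epithelium-poor region was higher in 7 samples, and in buccal mucosa replicate 2 the ratio of the regions was 1.00.

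Fgf9, a ligand of the receptors' connective tissue splice forms, was sparse, and its epithelium-rich level reached no more than 2.49 CPM. It was higher in the epithelium-poor region in both tongue sites and buccal mucosa replicate 1, by 1.71-fold (ventral tongue replicate 2) to 4.08-fold (dorsal tongue replicate 2). The other 3 samples had too few UMIs to show a direction. Buccal mucosa replicate 2 had 0 UMIs in the epithelium-rich region, which allows up to 2.10 CPM, against 11 UMIs and 1.72 CPM in the epithelium-poor region, and the hard palate samples had 3 against 2 and 3 against 6 UMIs. The log2 fold change over all samples was -1.17 ± 0.22 (SE, n = 8, edgeR adjusted p = 0.00176). Fgfr1, the receptor typical of connective tissue, had a median of 45.1 CPM in epithelium-rich sections (31.1 to 83.4 CPM) and 66.4 CPM in epithelium-poor sections (50.8 to 95.8 CPM). Its log2 fold change was -0.52 ± 0.08 (SE, n = 8, edgeR adjusted p = 0.000335), with buccal mucosa replicate 2 the only sample in which the epithelium-rich region was higher (83.4 against 79.9 CPM).

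Fgf10, a relative of Fgf7 with the same receptor, did not pass between the regions (log2 fold change -0.19 ± 0.17, SE, n = 8, edgeR adjusted p = 0.415). Its level was 30.2 CPM in the epithelium-rich and 15 CPM in the epithelium-poor region of buccal mucosa replicate 2, and 11.8 against 19.7 CPM in hard palate replicate 2. Without buccal mucosa replicate 2 the log2 fold change was -0.33 (adjusted p = 0.100). Fgf18, a ligand best known from bone and cartilage, did not pass either (log2 fold change -0.17 ± 0.32, SE, n = 8, edgeR adjusted p = 0.705). Its 2 ventral tongue samples were higher in the epithelium-rich region (3.57 against 1.42 CPM, and 1.28 against 0.888 CPM), while hard palate replicate 2 had 4.54 against 8.27 CPM. Of the 10 genes, 0 passed the test of a region difference that depends on the site (edgeR, 0.321% of all genes passed). At an unadjusted p under 0.05 there was 1, and DESeq2 called 0. The share of all genes is not given here for either, so these 2 counts are not read as a result.

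**Figure D1:**
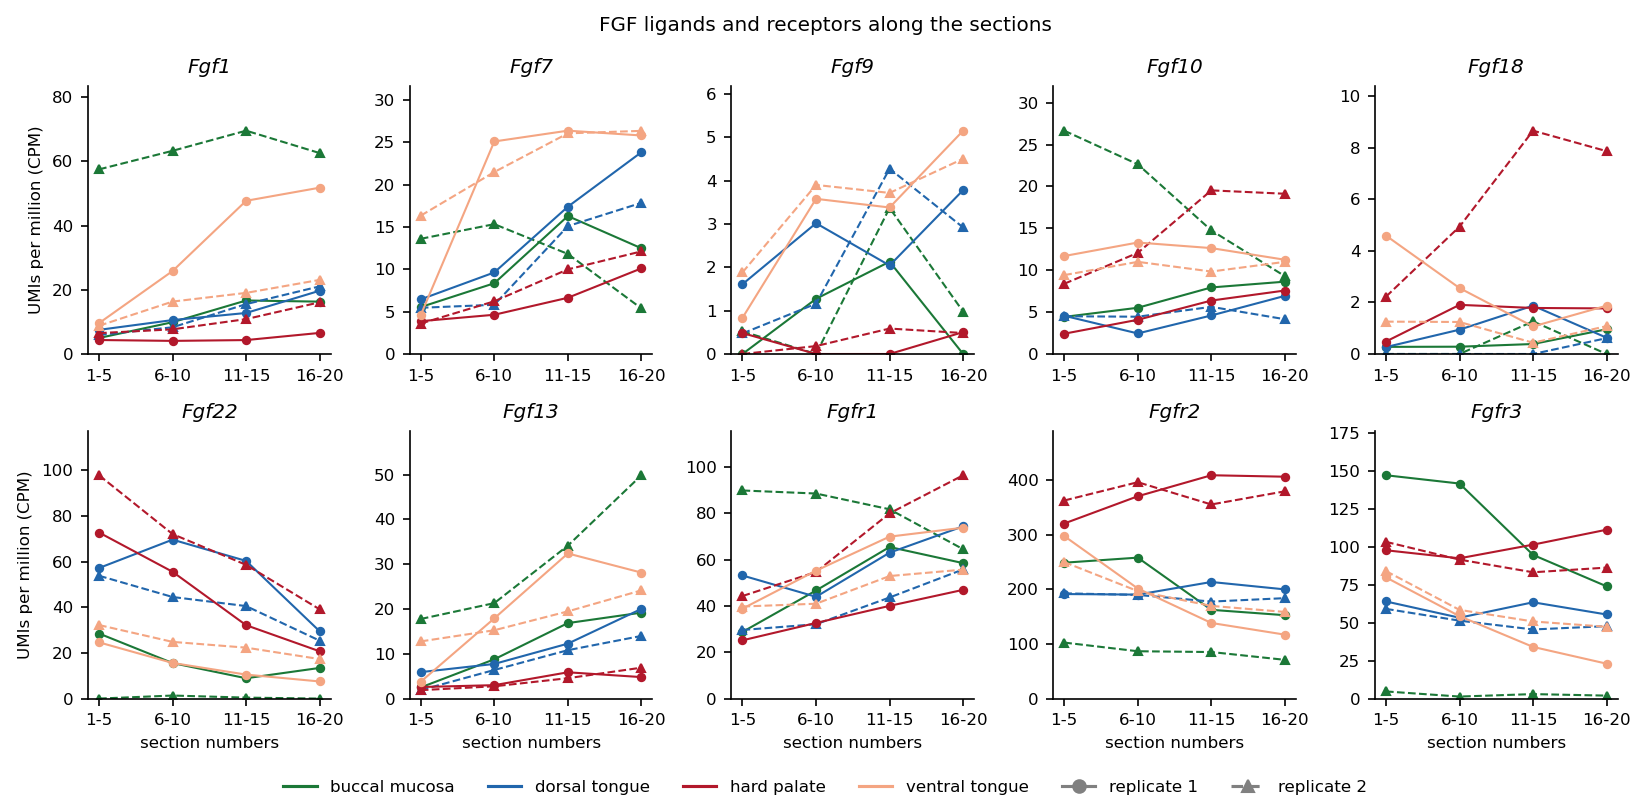
Levels of the 10 genes in CPM (vertical axes, linear, from 0) in sections 1 to 5, 6 to 10, 11 to 15 and 16 to 20 (horizontal axes). Each line is 1 of the 8 samples, coloured by site, with replicate 2 dashed. Fgf22 falls and Fgf13 rises along the sections at most sites, and Fgf22 and Fgfr3 of buccal mucosa replicate 2 lie near 0.

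A split by section number alone, which uses no expression value, was made because the keratinocyte score, as a running median over 3 sections, was highest within sections 1 to 3 in 7 of the 8 samples (in section 14 in hard palate replicate 1). Without the running median it was highest within sections 1 to 4 in 7 samples and in section 9 in hard palate replicate 2. Between sections 1 to 10 and sections 11 to 20 the same 8 genes passed edgeR's quasi-likelihood test in the same directions, against 32.3% of all genes (13.8% higher and 18.5% lower in sections 1 to 10). Fgf22 (log2 fold change 0.89 ± 0.11), Fgfr3 (0.40 ± 0.10) and Fgfr2 (0.28 ± 0.09) were higher in sections 1 to 10. Fgf13 (-1.16 ± 0.11), Fgf9 (-0.92 ± 0.26), Fgf1 (-0.83 ± 0.14), Fgf7 (-0.82 ± 0.17) and Fgfr1 (-0.49 ± 0.09) were lower. Fgf13 was lower in sections 1 to 10 in 8 of 8 samples, and Fgf22 was higher in the 7 samples other than buccal mucosa replicate 2, whose 3 UMIs show no direction. Fgfr2 had the weakest call (adjusted p = 0.0398 by edgeR) and kept it in 4 of the 8 fits that leave out a sample. It was lost without buccal mucosa replicate 1, dorsal tongue replicate 2, ventral tongue replicate 1 or ventral tongue replicate 2, with adjusted p up to 0.0878. Fgf9 lost its call without buccal mucosa replicate 1 (0.0541) or dorsal tongue replicate 2 (0.0654). Without buccal mucosa replicate 2, Fgf10 was lower in sections 1 to 10 and passed as well (log2 fold change -0.45, edgeR adjusted p = 0.0324, with 34.2% of all genes called, 19.8% as lower). The 2 splits share the same sections and are not independent.

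**Figure D2:**
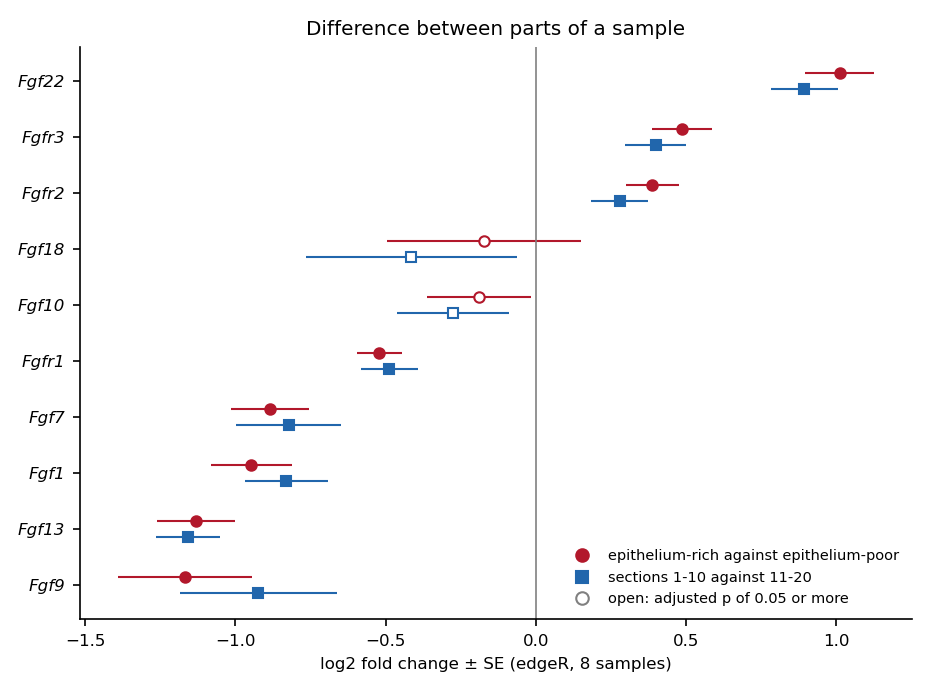
Log2 fold change ± SE (horizontal axis) of each of the 10 genes between epithelium-rich and epithelium-poor sections (circles) and between sections 1 to 10 and 11 to 20 (squares), from edgeR over 8 samples. Fgf22, Fgfr3 and Fgfr2 lie above 0 and 5 genes lie below 0 with filled symbols, while Fgf10 and Fgf18 have open symbols because they did not pass.

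Markers of other tissues moved with these differences. In epithelium-rich sections 18 of 18 skeletal muscle genes, 9 of 9 endothelial genes tested and 9 of 14 fibroblast genes fell, against 22.1% of all genes. So did 4 of 4 adipocyte genes tested and 7 of 9 Schwann cell genes tested. The skeletal muscle list summed to 183 to 38066 CPM in epithelium-rich and 300 to 53615 CPM in epithelium-poor sections, and it was lower in the epithelium-rich region of all 8 samples. The endothelial list summed to 115 to 472 CPM and 249 to 532 CPM. The adipocyte list was lower in the epithelium-rich region except in buccal mucosa replicate 2 (5238 against 4718 CPM). The fibroblast list was lower there except in buccal mucosa replicate 2 (9111 against 7795 CPM) and ventral tongue replicate 2 (6437 against 6419 CPM). Across the 20 sections of a sample, Fgf1 and Fgf13 had a median Spearman correlation of 0.75 with the skeletal muscle list over the 8 samples. Fgf13 had 0.77 with the adipocyte list, positive in 6 of 8 samples and with a lowest value of -0.68. With the smooth muscle and pericyte list, Fgf13 had 0.76, Fgf1 had 0.71 and Fgfr1 had 0.71, each positive in 8 of 8 samples. Fgf7 ran closest to the endothelial list (0.74), and Fgfr1 had 0.72 with muscle, 0.72 with adipocytes and 0.70 with endothelium. Fgf22 had 0.50 with the keratinocyte score and -0.71 with adipocytes. Fgfr2 and Fgfr3 had more with the basal keratinocyte list (0.55 and 0.51) than with the full score (0.37 and 0.42). Fgf10 had its highest value with the fibroblast list (0.55) and -0.01 with the keratinocyte score. These correlations share library and depth and are descriptions. The part of each tissue in the FGF differences was not tested.

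**Figure D3:**
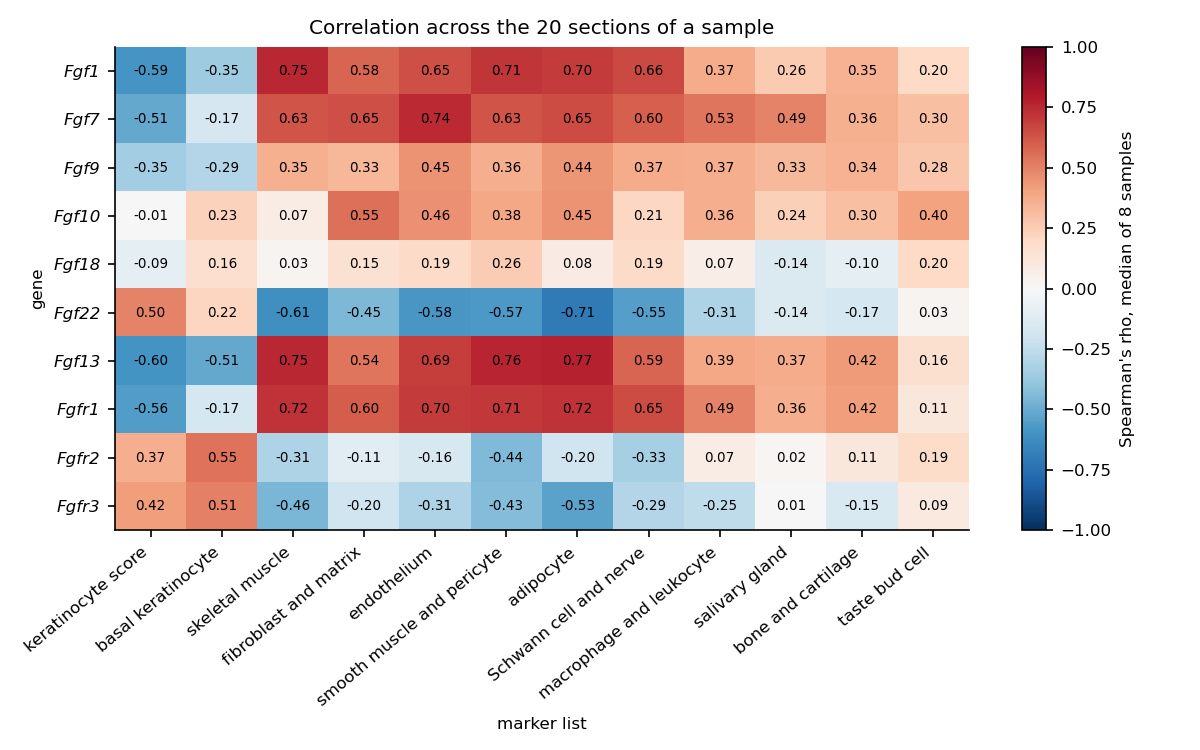
Median over 8 samples of Spearman's rho across the 20 sections between each of the 10 genes (rows) and the mean log2 level of each marker list (columns), with the value printed in each cell. Fgf1, Fgf7, Fgf13 and Fgfr1 are positive with muscle, endothelium and adipocytes, and Fgf22 is negative with them.

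Among the 10 genes themselves, Fgf1 and Fgf13 followed each other most closely along the sections (median rho 0.72, positive in 8 of 8 samples), followed by Fgfr2 and Fgfr3 (0.66, 8 of 8). Fgf22 ran against Fgf1 (-0.54) and Fgf13 (-0.47, negative in 8 of 8). It ran with Fgfr3 (0.49, positive in 6 of 8) more than with Fgfr2 (0.25). Fgf7 had -0.06 with Fgfr2, its known receptor, with samples between -0.60 and 0.26.

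The genes most like each well-measured FGF gene were taken from 7498 genes of at least 20 CPM by the mean Spearman correlation across sections over the 8 samples. Fgf22 was closest to Rnf225 (0.72), Aloxe3 (0.71), a lipoxygenase of the skin barrier, and Prdm1 (0.71), a transcriptional repressor. Fgfr3 was closest to Esrp1 (0.69), a splicing factor of epithelia, Zbtb7c (0.60) and Cdh1 (0.60), which encodes E-cadherin. Fgfr2 was closest to Elovl6 (0.68), a fatty acid elongase, Esrp1 (0.64) and Vav3 (0.64). Fgf1 was closest to Chpt1 (0.74), Dmd (0.72), which encodes dystrophin, and Immt (0.72), and Fgfr1 to Timp3 (0.70), Klf9 (0.67) and Mmrn2 (0.66), an endothelial matrix protein. Cdh1 is also 1 of the 20 genes of the keratinocyte score. The ranking depended on the method. By Pearson correlation the closest gene was Fam214b for Fgf22, Phkg1 for Fgf1 and Foxp1 for Fgfr2. It stayed Timp3 for Fgfr1 and Esrp1 for Fgfr3. In single samples the Spearman correlation went down to 0.16 for Rnf225 and Prdm1 with Fgf22, and to 0.20 for Esrp1 with Fgfr2.

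Between whole samples of the 4 sites, Fgf9 and Fgf7 were the members whose level differed. Of the 10 genes, 2 passed edgeR's test of any site difference, against 4.77% of the 18609 genes tested. Without buccal mucosa replicate 2 there were 4, against 12.3% of all genes, with Fgf22 (described below) and Fgf13 added (edgeR adjusted p = 0.00945 for Fgf13, and 0.101 over all samples). Fgf9 was at 3.52 and 3.56 CPM in ventral tongue, 2.73 and 2.26 in dorsal tongue, 1.18 and 1.40 in buccal mucosa and 0.282 and 0.341 in hard palate. No site overlapped the next in this order (adjusted p = 0.0181 by edgeR's quasi-likelihood test). The hard palate values are 5 and 9 UMIs, in libraries of 17743983 and 26376536.

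Fgf7 followed the same order, at 22.7 and 22.6 CPM in ventral tongue, 15.4 and 11.6 in dorsal tongue, 10.4 and 11.2 in buccal mucosa and 6.03 and 8.45 in hard palate. Again no site overlapped the next (edgeR adjusted p = 0.0450). Both calls of any site difference were kept without either buccal mucosa sample and lost without any 1 of the other 6 samples, with adjusted p up to 0.125 for Fgf9 and 0.211 for Fgf7.

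In hard palate against the mean of the other sites, 3 of the 10 genes fell (edgeR, 9.76% of all genes passed, 6.42% of all as lower). Fgf9 had a log2 fold change of -3.11 ± 0.38 (SE, adjusted p = 0.00586 by edgeR) and kept its call in 7 of 8 fits without a sample, all but the one without hard palate replicate 1 (0.0638). Fgf13 had -2.32 ± 0.50 (adjusted p = 0.0328 by edgeR), at 3.89 and 4.32 CPM in hard palate against 8.86 to 31.8 CPM in the other 6 samples. Fgf7 had -1.34 ± 0.26 (adjusted p = 0.0234 by edgeR). Without any 1 of the 6 tongue and palate samples, Fgf13 and Fgf7 no longer passed, with adjusted p up to 0.230 and 0.190. The skeletal muscle list, with all 18 genes detected in every sample, moved with these values: 14 of its 18 genes fell in hard palate, where its sum was 568 and 235 CPM. Other lists were below all other samples in hard palate too. The adipocyte list was at 36.1 and 170 CPM, against at least 466 CPM elsewhere. The endothelial list was at 146 and 202 CPM, against at least 206 CPM. The macrophage and leukocyte list was at 327 and 374 CPM, against at least 406 CPM. The part of each of these tissues in the 3 falls was not tested.

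Fgf1 was below all other samples in hard palate too, at 4.79 and 10.9 CPM against 11.3 to 63.6 CPM, but did not pass (log2 fold change -1.92 ± 0.76, edgeR adjusted p = 0.166). Fgfr2 lay above all other samples in hard palate, at 369 and 373 CPM against 85.9 to 220 CPM. Its log2 fold change of 0.79 ± 0.34 did not pass (edgeR adjusted p = 0.202), and without buccal mucosa replicate 2 it was 0.61 ± 0.15 and passed (adjusted p = 0.0379, with 16.4% of all genes called, 6.5% as higher). The basal keratinocyte list moved with it, at 9669 and 7818 CPM in hard palate against at most 6541 CPM elsewhere, as did the 20 keratinocyte genes (26070 and 23203 CPM, against at most 21533 CPM). Ctbp2, whose annotated exons overlap those of Fgfr2 (described below), was also highest in hard palate. It was at 12.5 and 8.34 CPM there, against at most 4.68 CPM elsewhere. The part of the keratinocyte lists and of reads shared with Ctbp2 in the level of Fgfr2 was not tested. Fgf18 reached 1.35 and 6.22 CPM in hard palate, against 0.197 to 2.16 CPM elsewhere, with a log2 fold change of 2.13 ± 0.70 that did not pass (edgeR adjusted p = 0.108). The hard palate samples also had the highest bone and cartilage list, and its part in Fgf18 was not tested.

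In ventral tongue against the others, 1 of the 10 genes passed and rose (edgeR, 1.29% of all genes passed, each of them as higher). This was Fgf9, with a log2 fold change of 1.92 ± 0.28 (adjusted p = 0.0338 by edgeR). Fgf7 had 1.26 ± 0.22 (adjusted p = 0.0550). The skeletal muscle list (28177 and 25256 CPM) and the adipocyte list (1095 and 971 CPM, at least 5 of its 8 genes detected) were higher in ventral tongue than in all other samples but buccal mucosa replicate 2. The endothelial list was too, at 376 and 352 CPM, against 521 CPM in buccal mucosa replicate 2 and at most 307 CPM elsewhere. The part of these lists in the rise was not tested. Without buccal mucosa replicate 2, Fgf9 (adjusted p = 0.0103), Fgf7 (0.0196) and Fgf13 (log2 fold change 1.55, adjusted p = 0.0118) all passed edgeR's test, and 6.69% of all genes did, 5.84% as higher. Without any 1 tongue or palate sample Fgf9 no longer passed, with adjusted p up to 0.392.

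**Figure D4:**
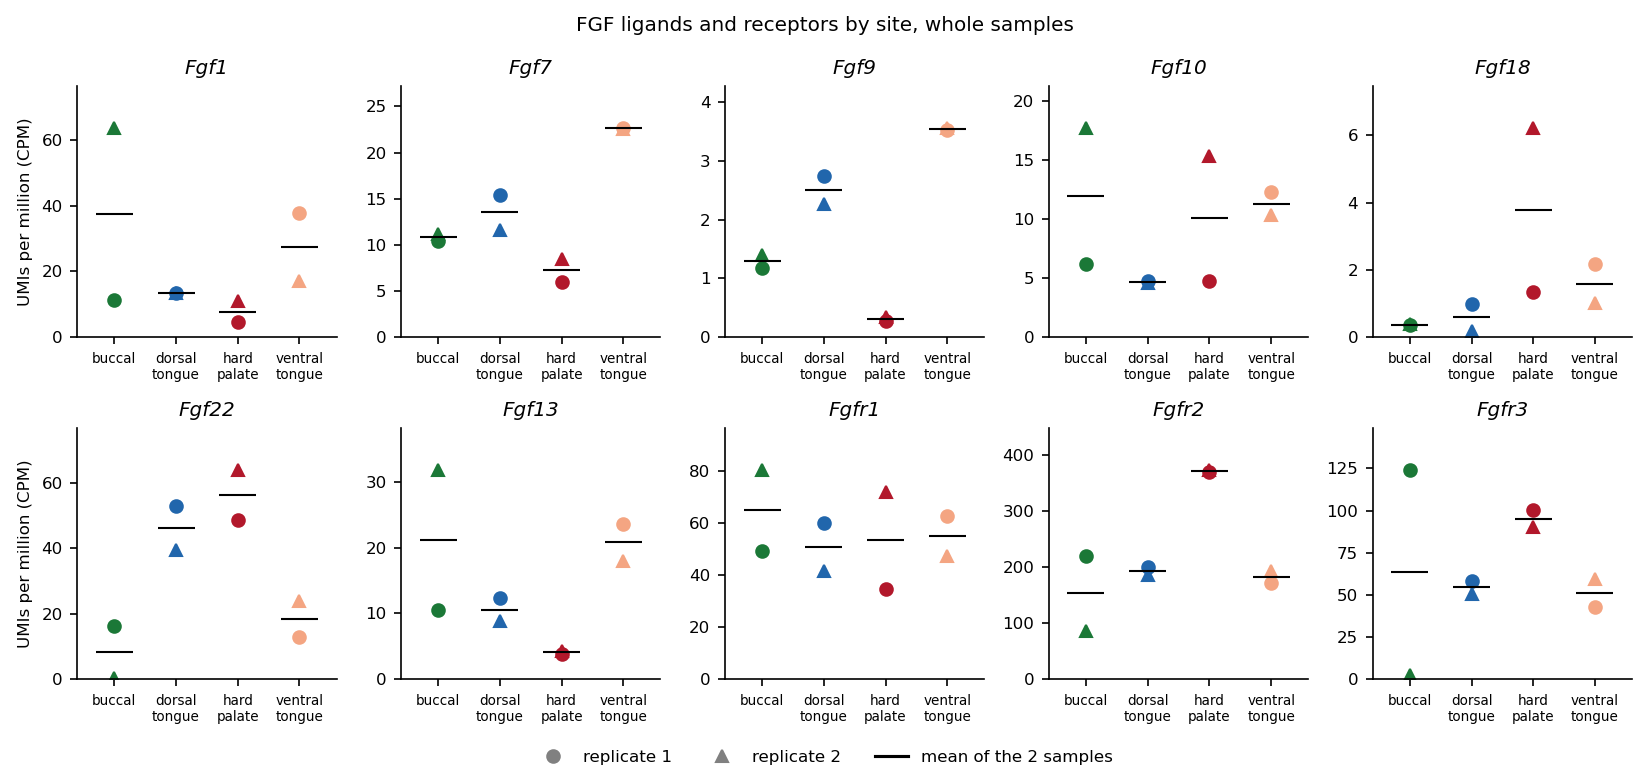
Whole-sample levels of the 10 genes in CPM (vertical axes, linear, from 0) by site (horizontal axes), with circles for replicate 1, triangles for replicate 2 and bars for the mean of the 2 samples. Fgf7, Fgf9 and Fgf13 are lowest in hard palate, Fgfr2 is highest there, and buccal mucosa replicate 2 departs from its partner in Fgf1, Fgf13, Fgf22, Fgfr2 and Fgfr3.

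The other site comparisons called 0 of the 10 genes by edgeR. For buccal mucosa, 0.72% of all genes passed, 1 member had an unadjusted p under 0.05 and DESeq2 called 0 members. For dorsal tongue the figures were 0.838%, 1 and 1. For dorsal against ventral tongue they were 0.00537%, 0 and 0. Within epithelium-rich sections 0 members differed between sites (2.19% of all genes passed, 2 members at an unadjusted p under 0.05, 1 by DESeq2). Within epithelium-poor sections 1 did (6.74% of all genes passed): Fgf9, with an edgeR adjusted p of 0.0221. Fgf7 and Fgf13 had 0.0643 and 0.0705 there, and 0.0436 and 0.0224 by edgeR without buccal mucosa replicate 2, where 10.5% of all genes passed. The percentages in this paragraph are for adjusted edgeR calls. For an unadjusted p and for DESeq2 the share of all genes is not given here, so those counts are not read as a result.

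Fgf22 and Fgfr3, both higher in epithelium-rich sections, were far lower in buccal mucosa replicate 2 than in its partner. The 2 dorsal tongue samples had 52.9 and 39.5 CPM of Fgf22, against 48.6 and 64.0 in hard palate, 13 and 24.0 in ventral tongue, and 16.2 and 0.383 in buccal mucosa. The dorsal tongue and hard palate samples were all above the others. Fgf22 did not differ between sites over all samples (edgeR adjusted p = 0.401), and did without buccal mucosa replicate 2 (0.0445, with 12.3% of all genes called). Fgfr3 was at 124 and 2.81 CPM in buccal mucosa, 100 and 90.3 in hard palate, 58.5 and 50.5 in dorsal tongue, and 42.8 and 59.6 in ventral tongue, and did not pass (adjusted p = 0.978, and 0.0855 without that sample).

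Fgfr1 was the most even of the receptors, at 49.4 and 80.6 CPM in buccal mucosa, 62.8 and 47.4 in ventral tongue, 34.9 and 72.0 in hard palate, and 60.0 and 41.7 in dorsal tongue. Each site overlapped its neighbour in this order of means, and the test of any difference gave an adjusted p of 0.855 by edgeR. Fgf10 was at 17.8 and 6.22 CPM in buccal mucosa replicates 2 and 1, 15.4 and 4.79 in hard palate replicates 2 and 1, 12.3 and 10.4 in ventral tongue and 4.76 and 4.62 in dorsal tongue. Its replicates differed within buccal mucosa and hard palate by more than the sites did, and it did not pass (edgeR adjusted p = 0.578).

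**Figure D5:**
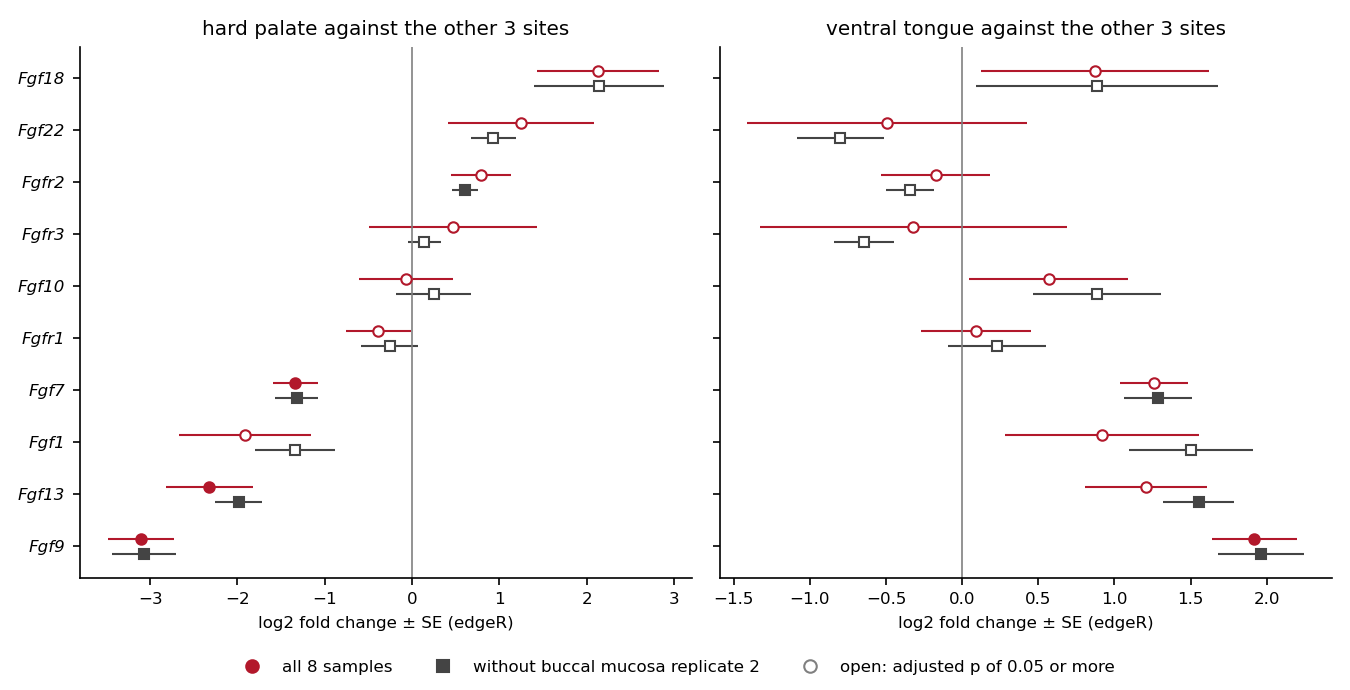
Log2 fold change ± SE (horizontal axes) of the 10 genes in hard palate (left) and ventral tongue (right) against the mean of the other 3 sites, over all 8 samples (circles) and without buccal mucosa replicate 2 (squares). Filled symbols passed: Fgf9, Fgf13 and Fgf7 in hard palate, and Fgf9 in ventral tongue, over all samples, with Fgfr2 added on the left and Fgf7 and Fgf13 on the right without that sample.

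Other genes of the pathway were read from fixed lists, whose counts stand beside the 38.8% of all genes that passed between the regions (16.7% as higher, 22.1% as lower). The shares called among receptors and binding proteins (3 of 8), heparan sulphate genes (8 of 20) and targets (6 of 16) were near that of all genes. Of 15 other FGF genes, 4 could be tested between the regions and 3 fell in epithelium-rich sections: Fgf2 (log2 fold change -0.81 ± 0.16, edgeR adjusted p = 0.00253), a ligand of connective tissue and muscle, Fgf20 (-0.62) and Fgf11 (-0.45). Among 8 other receptors and binding proteins tested, 2 rose and 1 fell. Fgfbp1, which releases FGFs from matrix, rose by 0.51, Flrt1 rose by 0.73, and Fgfrl1, a receptor without a kinase domain, fell (-0.74 ± 0.13, edgeR adjusted p = 0.000913). Of 20 heparan sulphate carriers and enzymes, 3 rose and 5 fell. Sdc1, the main syndecan of epithelia, rose (0.63 ± 0.13, edgeR adjusted p = 0.00291), and Sulf1 (-0.75), Gpc1 (-0.53) and Hspg2 (-0.53), the perlecan gene, fell.

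Inside the cell, 1 of 8 adaptors tested rose, Gab1 (0.42 ± 0.10, edgeR adjusted p = 0.00706). Of 16 targets and feedback inhibitors tested, 2 rose and 4 fell. Dusp5, a phosphatase of nuclear ERK, rose (0.54 ± 0.13, edgeR adjusted p = 0.00691), and Il17rd (-0.55), Etv5 (-0.47) and Egr1 (-0.35) fell. The medians were -0.53 for the other FGF genes, -0.05 for receptors and binding proteins, -0.09 for the heparan sulphate list, -0.07 for adaptors and 0.03 for targets, against -0.02 over all genes.

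Between sites 5 pathway genes passed edgeR's test of any difference: 1 of 6 other FGF genes tested, 1 of 8 receptors and binding proteins, 2 of 20 heparan sulphate genes, 0 of 9 adaptors and 1 of 18 targets, against 4.77% of all genes. Fgfrl1 was at 39.2 and 53.0 CPM in ventral tongue and 5.13 and 4.25 in hard palate (adjusted p = 0.0232 by edgeR). Gpc6, a glypican, was at 71.5 and 62.9 CPM in hard palate and at most 14.3 CPM in the other 6 samples (adjusted p = 0.0102 by edgeR). Sdc3 was highest in dorsal tongue (56.9 and 71.8 CPM), as was Etv4, a transcription factor induced by FGF signalling (8.20 and 8.27 CPM, against at most 2.72 elsewhere). Fgf6, known from muscle, was listed at 0 in both hard palate samples, which a count of 0 allows to be up to 0.169 and 0.114 CPM, and was at 0.424 to 0.894 CPM elsewhere.

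Some levels may include reads of other genes, since strand use in the counting was not given in the sources used here. Annotated exons of Fgf22 overlap those of Rnf126 on the opposite strand. Rnf126 had 33.3 CPM in buccal mucosa replicate 2, where Fgf22 had 0.383 CPM. The annotation gives Fgfr2 one transcript of 2960900 bases, on chromosome 7 from 130162451 to 133123350 (minus strand), where the next longest of its 27 transcripts spans 103813. The long one spans 14 other coding genes of the same strand, of which 12 had UMIs of their own, with a median of 1.92 CPM and a highest of 13 CPM. Of these genes only Ctbp2 has annotated exons that overlap those of Fgfr2, and reads in the shared stretch cannot be told apart by position. Ctbp2 had the same site extremes as Fgfr2. It was at 12.5 and 8.34 CPM in hard palate, against at most 4.68 CPM elsewhere, and lowest in buccal mucosa replicate 2 (1.15 CPM). Like Fgfr2, it was higher in the epithelium-rich region of every sample except those of hard palate. The part of shared reads in the site and region results of Fgfr2 was not tested.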

How the data were processed

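Per the labels' protocols, RNA of single sections was made into CEL-seq2 libraries (3′ counting with molecular identifiers) and read on a NextSeq500. The submitters' processing notes list STAR 2.7.9a, Trim Galore 0.6.10 and the GRCm38 build. Counter and strand setting: not given in the sources used here. Deposited tables hold UMI counts, read counts and estimated counts of transcripts per gene and section; the last were rounded to whole numbers. UMI counts are the main values.

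UMI counts were summed per sample, per region or per block of 10 sections. A section's keratinocyte score is the mean log2(CPM + 1) of 20 genes. Its running median over 3 sections was split by Otsu's threshold in each sample. Entries naming several genes (0.185% to 0.251% of UMIs) stayed in library sizes and tests. Genes passing filterByExpr were tested with edgeR 4.0.16 in R 4.3.3 (TMM scaling, quasi-likelihood F-test, Benjamini-Hochberg adjusted p under 0.05). All samples shared 1 estimate of the spread, and sites were set against the mean of the others on the log scale. The SE of a fold change is its size over the square root of F. The fit was also run on simulated data with the same spread for every gene and no deviating sample. The outcome is not given here and no result rests on it. A count of 0 allows up to 3 UMIs, for counting error only. Alternatives were DESeq2 1.42.0, RLE scaling, no filter, reads, estimated transcripts, each sample left out, a replicate block, and other region cuts.

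The text names all 10 members. Of each pathway list it names at most 4 genes that passed the test of any site difference or of the regions, by size. For likeness it names the 3 closest genes where a member had a median of at least 10 UMIs per section and a correlation of at least 0.5. Members and lists were chosen with earlier results of these data known. Cell barcode lists were not used.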

Additional observations from a re-analysis of the deposited data

How the results depend on the processing

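The 8 members that changed between the regions passed in every alternative (8 by edgeR with RLE scaling, DESeq2, no filter, reads, estimated transcripts, without border sections and without each sample), except that 6 passed with regions by Krt5 and Krt14. Calls between sections 1 to 10 and 11 to 20 numbered 6 to 9 over the fits without a sample. Site results were less stable. Leaving out 1 sample gave 0 to 7 members for any site difference (2 over all samples), 0 to 5 for buccal mucosa (0), 0 to 3 for dorsal tongue (0), 0 to 7 for hard palate (3) and 0 to 3 for ventral tongue (1). It gave 0 to 6 within epithelium-rich sections (0), 0 to 7 within epithelium-poor sections (1), and 0 for dorsal against ventral tongue and for the site-dependent region difference. The highest count of each site comparison that moved, other than ventral tongue, came only without buccal mucosa replicate 1, which leaves replicate 2 alone at its site, assumed to vary like the others. In that fit Fgfr3 reversed, to a log2 fold change of 1.46 in dorsal tongue and 1.12 in ventral tongue (edgeR adjusted p = 0.00561 and 0.0219), from -0.07 and -0.32 that did not pass, and the lowest values over these fits were -0.39 and -0.64 without buccal mucosa replicate 2. DESeq2 called 3 members for any site difference, 1 for dorsal tongue, 5 for hard palate, 2 for ventral tongue, 1 within epithelium-rich and 3 within epithelium-poor sections. With no filter on low counts these were 6, 1, 6, 3, 6 and 6, and 4 for buccal mucosa. Reads gave 1 for any site difference and 0 for ventral tongue. Without border sections 0 members passed within epithelium-poor sections. The causes were not tested. With DESeq2 and with no filter, calls of any site difference rose over all genes as well, as the counts below show. These member counts are therefore not read as a result about the FGF genes. For the other comparisons the share of all genes is not given here for DESeq2, no filter or most fits without a sample. Over all genes, any site difference was called for 887 genes by edgeR, 3284 by DESeq2, 4522 with no filter, 362 with the replicate block, 2429 without buccal mucosa replicate 2 and 5684 without buccal mucosa replicate 1. The counts behind Fgf9 and Fgf18 limit them most: 279 and 278 UMIs in 160 sections.

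Replicate numbers were shared by the sites without a stated pairing. Deviations of same-numbered samples correlated at -0.26 to 0.54 over 15942 genes in the 6 pairs of sites, so the numbers were taken to name samples only. The 0.54 was that of dorsal and ventral tongue, and whether these share animals was not tested. The comparison of these 2 sites called 0 members with and without the block. With the replicate block, 1 member passed for any site difference, 2 for hard palate, 0 for ventral tongue and 0 within epithelium-poor sections. The block changed no other count of members.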

Other observations

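Of the 15 other FGF genes, several were at or near 0 in whole samples. Fgf8 and Fgf15 reached no more than 0.0471 and 0.0487 CPM in any sample and Fgf17 no more than 0.0592 CPM. Fgf21 reached 0.195 CPM. Fgf3 was at 0.828 ± 0.638 CPM in dorsal tongue (SD, n = 2) and no more than 0.288 CPM on average at each other site. It could not be tested because it did not pass the filter on low counts. The Klotho coreceptor gene Kl reached 0.118 CPM. Klb reached 1.53 CPM in buccal mucosa replicate 2, the sample with the highest adipocyte list. Etv1, a target of FGF signalling, was at 122 CPM in 1 buccal mucosa sample and had a median of 6.80 CPM over the 8 samples. The mean of buccal mucosa, the site whose replicate 2 stood apart from its label, was 63.2 ± 83.6 CPM (SD, n = 2). It did not pass between sites (edgeR adjusted p = 0.197).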
